A study of Mus musculus with 2 samples.

Results

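Small nuclear RNAs (snRNAs) are short, non-polyadenylated RNAs that form the RNA core of the spliceosome, the machine that removes introns from pre-mRNA. The genes described here are the 29 annotated snRNA genes that held at least 10 expected counts in the gene tables of both adrenal libraries, out of 1383 snRNA genes in GENCODE M21 and 55450 annotated genes in all. They were selected on these measured counts, so their levels are given as a description and are not tested. Of the 29 genes, 4 carry an Rnu symbol (Rnu1a1, Rnu2-10, Rnu11 and Rnu12) and 25 carry a Gm symbol, which names a predicted gene model.

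The study measured total RNA from the mouse adrenal gland in 2 libraries, labelled as biological replicates 1 and 2 of 1 group: female B6CASTF1/J mice (an F1 cross of the B6 and CAST strains) aged 36 days, with 300 ng of RNA per library and added ERCC spike-in transcripts. No treatment, second genotype or second tissue was included. The labels disagree on whether the libraries came from 1 or 2 animals, so the difference between them may hold technical as well as animal-to-animal spread. With 2 libraries of 1 group no test was possible, and every difference below is the value in each library and their ratio. The libraries held 35684781 and 38701795 expected counts, and the adrenal label was checked on markers. Star, which moves cholesterol into mitochondria for steroid synthesis, stood at 4620 and 4647 TPM, and Th, the rate-limiting enzyme of catecholamine synthesis, at 196 and 140 TPM.

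The spliceosome is built from small nuclear ribonucleoproteins, each with 1 snRNA at its core. In the major spliceosome U1 pairs with the 5′ splice site and U2 with the branch site, and U4 arrives base-paired to U6 in a complex with U5. After U4 leaves, U6 pairs with U2 to form the catalytic center. A minor spliceosome, which removes a small class of introns, uses U11, U12, U4atac and U6atac in the places of U1, U2, U4 and U6, and U7 acts outside splicing, in histone mRNA 3′ end formation.

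The 29 genes held only 18 distinct sequences, and the differences among them decide which reads could be told apart. The sequences on which the results turn are printed 5′ to 3′ from the GENCODE M21 transcripts on mm10, the reference strain rather than the F1 animals. The first stretch in capitals marks the stretch used to check the class: the bases of U1 that pair with the 5′ splice site, the bases of U2 and U12 that pair with the branch site, and the 5′ end of U4, U11 and U6atac. The later stretch in capitals marks the Sm pattern, where the ring of Sm proteins binds. U6atac has no such stretch, and the U6 family is bound by the related LSm ring.
Rnu1a1 (U1, chr11:87422867-87423030, plus strand): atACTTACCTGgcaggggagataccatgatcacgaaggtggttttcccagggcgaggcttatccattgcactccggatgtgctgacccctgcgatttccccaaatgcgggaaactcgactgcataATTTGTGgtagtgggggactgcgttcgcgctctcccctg
Gm22513 (U1, chr12:54696782-54696945, plus strand): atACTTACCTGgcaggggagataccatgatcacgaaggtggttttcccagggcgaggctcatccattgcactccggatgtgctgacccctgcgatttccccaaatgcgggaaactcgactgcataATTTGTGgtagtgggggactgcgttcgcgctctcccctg
Gm25890 (U1, chr3:96486555-96486719, minus strand): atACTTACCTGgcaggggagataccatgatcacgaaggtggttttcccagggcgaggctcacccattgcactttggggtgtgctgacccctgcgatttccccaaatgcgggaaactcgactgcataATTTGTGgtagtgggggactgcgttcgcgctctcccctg
Rnu2-10 (U2, chr11:101658238-101658428, plus strand): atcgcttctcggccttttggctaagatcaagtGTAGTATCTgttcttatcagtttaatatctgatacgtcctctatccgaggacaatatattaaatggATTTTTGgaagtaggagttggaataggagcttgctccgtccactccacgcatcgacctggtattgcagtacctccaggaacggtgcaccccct
Gm23472 (U2, chr1:72236946-72237136, plus strand): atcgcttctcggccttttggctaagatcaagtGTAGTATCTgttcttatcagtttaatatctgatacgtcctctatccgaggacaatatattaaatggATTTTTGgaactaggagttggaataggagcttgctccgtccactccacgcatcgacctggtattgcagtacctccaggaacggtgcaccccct
Gm24497 (U2, chr1:72244213-72244403, plus strand): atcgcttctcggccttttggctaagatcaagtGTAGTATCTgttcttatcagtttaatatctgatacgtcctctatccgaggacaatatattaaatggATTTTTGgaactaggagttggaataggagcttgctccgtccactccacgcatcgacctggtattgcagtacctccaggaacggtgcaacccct
Gm24265 (U4, chr5:115489459-115489599, plus strand): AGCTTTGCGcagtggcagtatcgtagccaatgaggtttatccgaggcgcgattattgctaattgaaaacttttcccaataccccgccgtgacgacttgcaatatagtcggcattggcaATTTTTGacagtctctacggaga
Rnu11 (U11, chr4:132270080-132270213, minus strand): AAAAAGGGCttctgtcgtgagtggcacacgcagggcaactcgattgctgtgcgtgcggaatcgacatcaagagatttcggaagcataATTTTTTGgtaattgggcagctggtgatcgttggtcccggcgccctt
Rnu12 (U12, chr15:83149644-83149794, plus strand): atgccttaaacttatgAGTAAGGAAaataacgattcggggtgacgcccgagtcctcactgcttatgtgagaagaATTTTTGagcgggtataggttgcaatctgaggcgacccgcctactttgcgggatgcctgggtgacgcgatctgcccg
Gm25541 (U6atac, chr2:27539805-27539930, minus strand): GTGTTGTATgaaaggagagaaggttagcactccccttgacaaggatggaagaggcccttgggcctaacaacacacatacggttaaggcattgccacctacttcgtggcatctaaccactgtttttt

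The classes follow from these sequences: 4 genes were placed by their symbol, 22 by at least 80% identity to a named copy, and 3 (both U4 genes and the U6atac gene) by the class stretch alone. All 29 genes held the stretch of their own class, which for genes placed by that stretch alone was fixed by the placing. The stretch was also present in 42 of the 65 other U1 genes, 17 of the 20 other U2 genes and all 13 other U4 genes. The Sm pattern, searched on the gene strand as ATTTNTG or as ATTTTTTG, was present in 28 of the 29, the exception being the U6atac gene. It was present in 272 of the 1354 other snRNA genes (20.1%) and in 38 of 1019 snoRNA transcripts of 100 to 200 bases (3.73%). The 1354 include 605 genes classed as U6, a family bound by the LSm ring, and 590 unclassed genes. Within classes the pattern was present in 38 of the 65 other U1 genes, 6 of the 20 other U2 genes and 4 of the 13 other U4 genes. A match is a description of the letters only. Copies with counts were also closer to the reference copy of their class: the 13 U1 genes were 96.3% to 100% identical to Rnu1a1, against a median of 83.5% for the 65 other U1 genes, of which 10 reached 95%. The 11 U2 genes were 95.3% to 100% identical to Rnu2-10, against a median of 63.9% for the 20 other U2 genes. Of those 20 genes 2 reached 95%, the highest at 98.95%. That is above Gm22973 (95.3%), Gm25360 (97.9%) and Gm25939 (98.4%) among the 11, and equal to Gm24497.

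Together the snRNA genes took 0.276% of the expected counts in replicate 1 and 0.392% in replicate 2, and the 29 genes held 99.9% and 99.95% of those. On the TPM scale, which divides counts by effective length, the snRNA genes took 3.50% and 5.02% of the total. The larger share on the TPM scale goes with the effective length in these tables, which equalled the annotated length minus 99 bases for all 1383 snRNA genes, or 0 for the 193 genes under 100 bases, which held 0 counts. Relative to the annotated length this raised TPM 2.08-fold for U2, 2.52-fold for U1, 2.90-fold for U12, 3.36-fold for U4, 3.83-fold for U11 and 4.67-fold for U6atac. Levels of classes are therefore also given per annotated kilobase, and no class level here is an RNA amount free of this correction.

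U2 was the most abundant class by TPM, with 20029 TPM and 27900 TPM over its 11 genes in replicates 1 and 2. U1 followed with 11505 and 17966 TPM over 13 genes, and U4 with 3245 and 4117 TPM over 2 genes. The values of these 3 classes did not overlap between libraries, so their order held in both. It is also the order of their lengths, 191 bases for U2, 164 or 165 for U1 and 141 for U4. The part of RNA length in how many reads each class gave was not tested. U2 made up 67.4% of snRNA counts in replicate 1 (exact 95% binomial interval 67.1% to 67.7%) and 65.5% in replicate 2 (65.3% to 65.8%), and U1 made up 27.4% (27.1% to 27.7%) and 29.8% (29.6% to 30.1%). U4 made up 4.98% (4.85% to 5.12%) and 4.41% (4.31% to 4.52%). These intervals cover counting error only, and reads are not independent molecules. The ratio of U2 to U1 was 1.74 and 1.55 by TPM, and 2.12 and 1.89 per annotated kilobase.

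**Figure D1:**
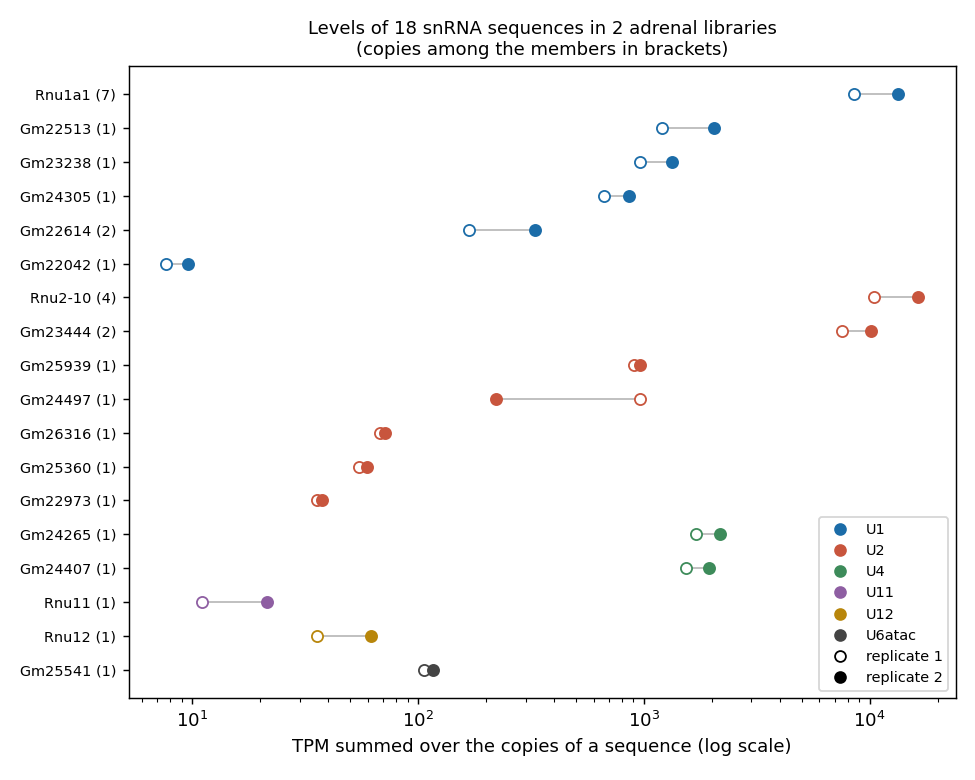
TPM of the 18 distinct snRNA sequences, summed over identical copies, on a log scale, with open points for replicate 1 and filled points for replicate 2 and 1 color per class. The sequence of Rnu2-10 (4 copies) and that of Rnu1a1 (7 copies) stand highest, and Gm24497 is the only sequence lower in replicate 2.

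Among the U1 genes, the sequence of Rnu1a1 is shared by 7 genes, whose reads cannot be told apart and to which equal values were assigned: the value of each gene was 1214 TPM and 1911 TPM in replicates 1 and 2. Their sum was 8495 and 13376 TPM, most of all U1. Gm22513 differs from Rnu1a1 by T60C alone (positions are counted from 1 at the 5′ end) and stood at 1205 and 2054 TPM. Gm23238, which differs by G12A, A23T, C153T and C160A, stood at 966 and 1339 TPM, and Gm24305, which differs by A26G, at 664 and 857 TPM. The substitution G12A lies directly after the stretch that pairs with the 5′ splice site, which is itself identical in all 13 U1 genes. A longer U1 form of 165 bases, shared by Gm25890 and Gm22614, was lower, at 83.8 and 166 TPM for each gene. Gm22042, which differs from that form by T22C, stood at 7.70 and 9.61 TPM.

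Among the U2 genes, the sequence of Rnu2-10 is shared by 4 genes (with Gm23849, Gm24950 and Gm23971), and the value of each was 2620 and 4095 TPM. The form with G109C, held by Gm23472 and Gm23444, stood at 3764 and 5082 TPM for each gene. The order of these 2 forms per gene is not settled: in replicate 2 the posterior mean counts, explained below, were 12706 and 13254 for Gm23472 and Gm23444 and 12806 to 16057 for the 4 copies of the Rnu2-10 sequence, and the 5082 TPM of Gm23472 lay above its own deposited interval of 2347 to 4360 TPM. Gm25939, with T69C, C78T and G109C, stood at 904 and 965 TPM. The scarcest forms were Gm26316 (C170T) at 68.3 and 71.8 TPM, Gm25360 (4 substitutions) at 54.9 and 59.6 TPM, and Gm22973 (9 substitutions) at 35.6 and 37.7 TPM. All of these substitutions lie outside the branch-site stretch at positions 33 to 41 and the Sm pattern at positions 99 to 105, which are identical in the 11 U2 genes.

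The 2 U4 genes lie side by side on chromosome 5 and differ by G88A and C99A. Gm24265 stood at 1708 and 2167 TPM, and Gm24407 at 1537 and 1950 TPM. Gm24265 was higher than Gm24407 within each library, but the values overlapped between libraries, since Gm24407 in replicate 2 was above Gm24265 in replicate 1.

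The minor spliceosome was represented by 3 genes with few reads. Gm25541 (U6atac) held 104 counts in replicate 1 and 122 in replicate 2, or 107 and 117 TPM. Rnu12 (U12) held 67 and 125 counts, or 35.7 and 62.1 TPM, and Rnu11 (U11) held 14 and 29 counts, or 11.1 and 21.4 TPM. Their order by TPM and per annotated kilobase was U6atac, U12, U11 in both libraries, without overlap. As CPM (counts scaled to the library total, with no length correction), U6atac (2.91 and 3.15) and U12 (1.88 and 3.23) overlapped. The U2 to U12 ratio per annotated kilobase was 784 and 628, and the U1 to U11 ratio was 1574 and 1273, so the major forms stood far above their minor counterparts in both libraries.

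Several classes had no gene past the count minimum. The 605 genes classed as U6, annotated at a median of 107 bases and so with an effective length of 8, held 3 counts in replicate 1 and 0 in replicate 2. The 11 genes classed as U5, at 116 bases with an effective length of 17, held 6 and 3 counts. The 33 genes classed as U7 are all under 100 bases and held none, and no gene was classed as U4atac. A count of 0 allows up to 3 counts, or 0.0841 and 0.0775 CPM. This bound does not apply to U7, whose genes have an effective length of 0. U6 and U5 RNA held too few counts in these tables for a level to be given, and the reason was not tested. Nothing about their abundance in the gland follows.

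Just inside the minimum of 10 counts stood Rnu11 (14 and 29) and Gm22042 (18.3 and 24.5). Just outside stood the U1 genes Rnu1b6, Gm26232 and Gm24830, which share a sequence (13.3 and 8.61 counts each), the U2 gene Gm25813 (8 and 16.0), and Rnu1b1 and Rnu1b2 (12.3 and 3.87 each). In all, 36 other snRNA genes held some count and 1318 held 0 in both libraries.

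The snRNA genes were higher in replicate 2: their share of counts was 1.42-fold and their TPM 1.43-fold that in replicate 1, beside 1.00-fold for the share of protein-coding genes. By class the TPM ratio was 1.56 for U1, 1.39 for U2, 1.27 for U4 and 1.09 for U6atac, and, on few counts, 1.74 for U12 and 1.93 for U11. Of the 29 genes, 28 were higher in replicate 2 and Gm24497 was lower. Of the 26 with at least 200 summed counts 25 were higher (96.2%), beside 58.3% of all 12265 genes with that depth. Identical copies were assigned equal values, among them the 7 of the Rnu1a1 sequence and the 4 of the Rnu2-10 sequence. These genes are therefore not separate observations, and the 2 shares are not like for like. Over these 26 genes the median log2 ratio of TPM + 0.1 was 0.64, beside 0.04 over all 12265. With 1 value per distinct sequence the median was 0.35, and from the posterior mean counts, explained below, it was 0.42. The same shares of other short RNAs were closer to equal: genes under 200 bases outside this set took 0.0543% and 0.0549% of counts, a ratio of 1.01, snoRNAs had a ratio of 1.03, and scaRNAs, which guide snRNA modification in Cajal bodies, had a ratio of 0.938.

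A 2-fold higher value in replicate 2 was reached by 0.4% of the 12265 genes and by 0 of the 26 snRNA genes. A 2-fold lower value was reached by 0.424% of all genes and by 1 of the 26, Gm24497. The other 25 genes were all higher in replicate 2, by less than 2-fold, as point estimates. Markers of muscle and liver also differed between the libraries. Of the muscle genes Acta1 stood at 97.6 and 1.11 TPM, and Ckm at 45.9 and 0.20 TPM. Of the liver genes Alb stood at 22.7 and 1.34 TPM and Apoa1 at 3.79 and 0.11 TPM. The fat genes were closer to equal, with Fabp4 at 790 and 749 TPM and Ucp1 at 320 and 257 TPM. The kidney genes Lrp2 (0.21 and 0.13 TPM) and Aqp2 (0.21 and 0.25 TPM) were low in both libraries. So were the leukocyte genes Ptprc (1.66 and 1.27 TPM) and Cd79b (0.12 and 0.35 TPM). All 5 medullary markers examined were lower in replicate 2, among them Chga at 465 and 381 TPM. The part of these tissues, of handling and of RNA quality in the snRNA difference was not tested, and in bulk tissue more cells and more RNA per cell cannot be told apart.

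**Figure D2:**
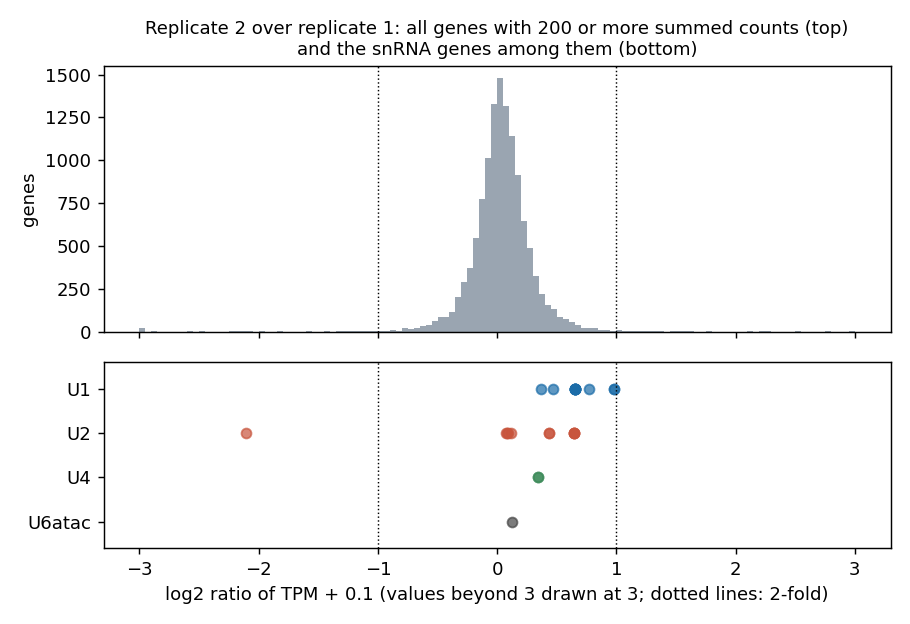
Histogram of the log2 ratio of replicate 2 over replicate 1 (TPM + 0.1) for 12265 genes, above the same ratio for 26 snRNA genes, 1 row per class, with overlapping points for identical copies. All snRNA genes but Gm24497 lie right of 0 and left of the 2-fold line, and Gm24497 lies at -2.11.

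The effective lengths imply reads of 100 bases, so each gene was divided into all its 100-base windows and each window was searched in all annotated transcripts. Of the 29 genes, 15 had no window of their own, 7 had some and 7 had all of them on the gene strand (Rnu11, Rnu12, Gm25360, Gm22973, Gm24265, Gm24407 and Gm25541). No window was shared with a gene of another kind. The tables also give a posterior mean and standard deviation (SD) of each count, which describe the uncertainty in dividing shared reads within 1 library. In replicate 1 the posterior SD was at most 0.271% of the posterior mean for the 7 genes with all windows their own, 0.0726% to 71.95% for the 7 with some, and 23.3% to 68.2% for the 15 genes with none. In replicate 2 the values were at most 0.112%, 0.0507% to 63.7%, and 15.9% to 58.2%. The highest value in both libraries was that of Gm22042, a gene of few counts with 22 of its 66 windows its own.

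**Figure D3:**
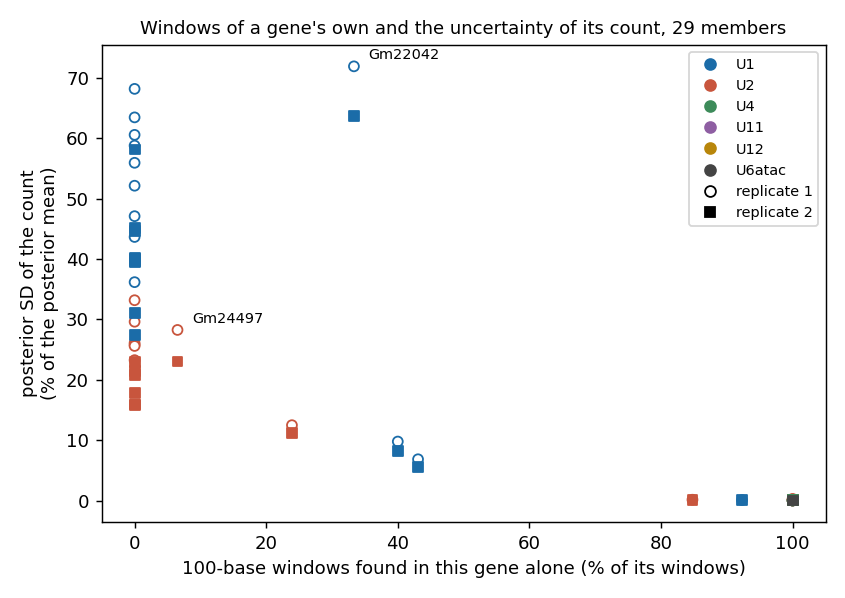
Posterior SD of each gene's count, as a percentage of its posterior mean, against the percentage of its 100-base windows found in that gene alone, for 29 genes in replicate 1 (open circles) and replicate 2 (filled squares). Genes without a window of their own stand at 15.9% or more, genes with every window their own at 0.271% or less, and genes with some range up to 71.95% (Gm22042).

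The ratios between libraries differed among genes with windows of their own. Gm22513, with 60 of 65 windows its own, had a log2 ratio of 0.77, while the U2 gene Gm25939, with 78 of 92, had 0.09. The U2 genes Gm25360 and Gm22973, with every window their own, had 0.12 and 0.08, Gm26316, with 22 of 92, had 0.07, and both U4 genes had 0.34. The deposited TPM intervals did not overlap between libraries for 5 genes (Gm22513, Gm23238, Rnu12, Gm24265 and Gm24407) and overlapped for 24. The same share over all genes was not computed, so whether this count is unusual is not known. For the minor genes, which share no same-strand window with another gene (all 35 windows of Rnu11 also occur antisense, in Gm28872), the ratio of count shares was 1.91 for Rnu11 (exact 95% interval 0.977 to 3.91), 1.72 for Rnu12 (1.27 to 2.35) and 1.08 for Gm25541 (0.826 to 1.42), counting error only. The intervals of Rnu11 and Gm25541 include equal shares, so a difference was not detectable at this depth.

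Gm24497, the 1 gene that went the other way, shares most of its sequence with 2 other genes. It had 960 and 222 TPM in the 2 libraries, for a log2 ratio of -2.11, from 3185 and 790.8 expected counts. It differs from Gm23472 and Gm23444 by C186A alone, near the 3′ end, and only 6 of its 92 windows are its own. Its posterior mean count was 8028 (posterior SD 2269) in replicate 1 and 11007 (posterior SD 2536) in replicate 2, for a log2 ratio of 0.31 in the opposite direction. Its TPM also lay below its own deposited interval in both libraries, which ran from 1170 to 3569 TPM and from 1779 to 4665 TPM. The sum over the 3 genes does not depend on that division: it was 8487 and 10387 TPM, or 1.22-fold higher in replicate 2. Within that sum Gm24497 held 11.3% and 2.14% of the expected counts, but 28.5% and 29.8% of the posterior mean counts. The count of genes at 2-fold was also 1 from the posterior means, but the gene was Gm22614, at a log2 ratio of 1.43 in place of 0.98.

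**Figure D4:**
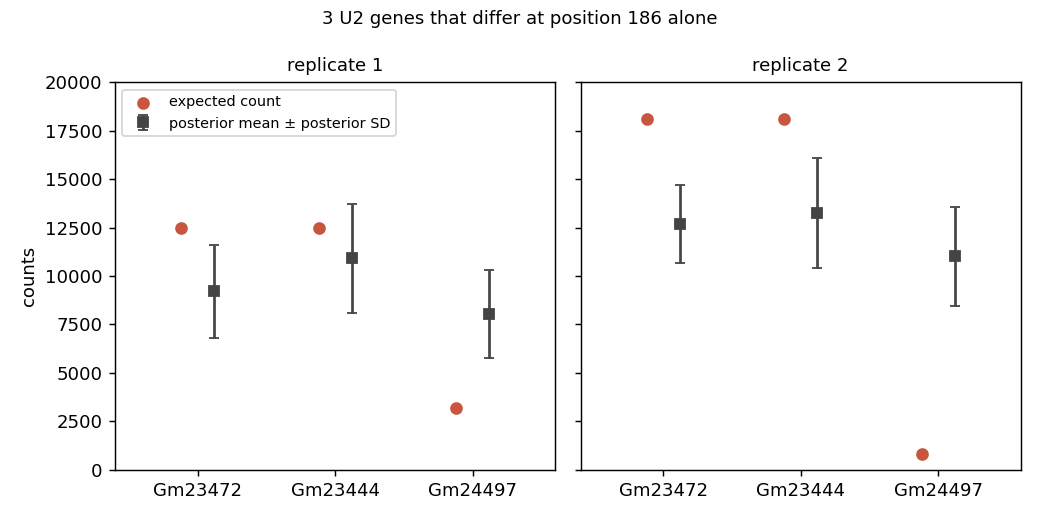
Expected counts (circles) and posterior mean counts with their posterior SD (squares with bars) for Gm23472, Gm23444 and Gm24497 in each library. The expected count of Gm24497 falls from 3185 to 790.8 while its posterior mean is 8028 and 11007.

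In the genome, 22 of the 29 genes lay in 6 runs of neighbors of 1 class with gaps of at most 50 kb, and 7 lay alone, on 9 chromosomes in all. The longest run of U1 genes held 7 genes over 41.8 kb (chr12:54696782-54738622), and that of U2 held 5 genes over 53.6 kb (chr11:101604850-101658428), including all 4 copies of the Rnu2-10 sequence. A second U2 run on chromosome 1 (chr1:72226240-72255198) held 4 genes, all with different sequences, among them Gm23472 and Gm24497. Copies of 1 sequence were not confined to 1 run, since Rnu1a1 and Gm22068 on chromosome 11 carry the sequence of 5 genes on chromosome 12 (Gm22634, Gm23804, Gm25679, Gm26444 and Gm22317). No member lay in a same-strand exon of another gene. Gm23472, Gm24497 and Gm25939 lay in introns of D230017M19Rik, a long noncoding RNA gene at 0.29 and 0.17 TPM, and Rnu1a1 and Gm22068 in introns of Tex14 at 0.14 and 0.29 TPM. Gm23849 lay in an intron of Rdm1, at 9.08 and 9.59 TPM. Rnu11 lies opposite an exon of the lincRNA gene Gm28872, and Gm23238 opposite an exon of the lincRNA gene AC134906.1, both of which held 0 counts. Whether the counting used strand is not stated, so reads of such a pair may not be separable.

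A separate set of deposited tables, quantified straight from the reads, listed all 1383 snRNA genes at 0 in both libraries. All 29 members were thus at 0, beside 1.8% (298) of the 16535 genes with at least 10 expected counts in both libraries. The share at 0 went with transcript length: it was 110 of 110 genes whose longest transcript is under 200 bases, 72 of 82 genes (87.8%) from 200 to under 330 bases, 64 of 204 (31.4%) from 330 to under 500, 4.38% from 500 to under 1000 and 0.0788% from 1000 bases. These tables subtracted a median of about 329.1 bases in replicate 1 and 329.04 in replicate 2 from long transcripts to give the effective length. A gene at 0 there is listed at 0, and no absence of the RNA follows. The levels above rest on the alignment-derived tables alone.

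**Figure D5:**
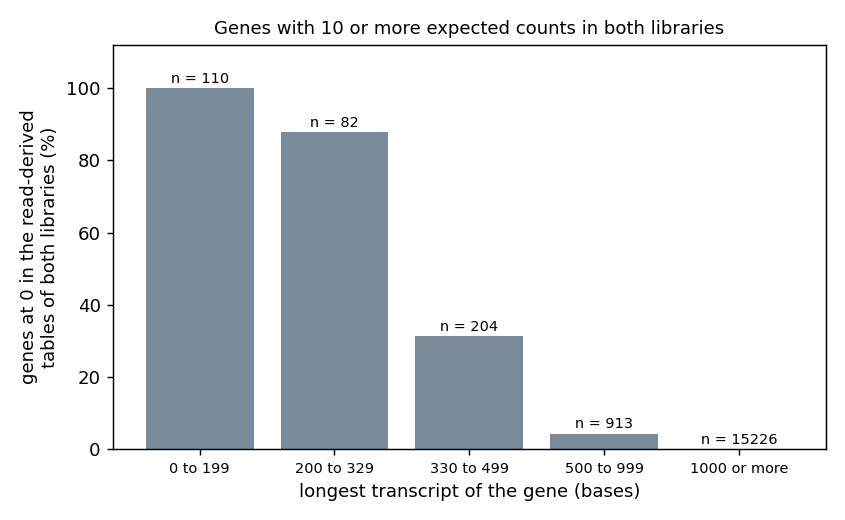
Percentage of genes listed at 0 in the read-derived tables of both libraries, by the length of the longest transcript, among 16535 genes with at least 10 expected counts in both alignment-derived tables (n above each bar). Every gene under 200 bases, the 29 snRNA genes included, is at 0, and 0.0788% of those of 1000 bases or more.

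The proteins that build, carry and use these RNAs were read from 12 lists with 123 genes found, of which 122 were at 1 TPM or more in both libraries. None of the 121 with at least 200 summed counts was 2-fold apart. Their median log2 ratio was -0.01, with a range from -0.46 (Txnl4a, a tri-snRNP protein) to 0.45 (Dcp2). The median of the snRNA genes was 0.64, or 0.35 with 1 value per distinct sequence and 0.42 from posterior mean counts. Of the 121 protein genes 55 were higher and 65 lower in replicate 2. Among all 11590 protein-coding genes with that depth 6784 were higher and 4761 lower, and their median was also 0.04. The 8 Sm ring genes, whose proteins encircle the Sm pattern, had a median of 28.5 TPM, led by Snrpg at 127 and 142 TPM and Snrpb at 55.7 and 55.8 TPM. Of the 3 U1 proteins, Snrnp70, which binds the first stem of U1, stood highest at 80.2 and 67.7 TPM. Of the 12 U2 proteins, Sf3b2 stood at 55.0 and 52.0 TPM and Sf3b1, which clamps the branch-site helix, at 40.3 and 42.8 TPM. The 7 LSm genes of the U6 ring were present although U6 itself held too few counts for a level, with Lsm6 at 49.6 and 44.7 TPM. Of the 15 proteins of the tri-snRNP of U4, U6 and U5, Prpf8, the central scaffold of the catalytic core, stood at 45.0 and 49.0 TPM.

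The 9 minor spliceosome proteins found had a lower median of 5.91 TPM, with Zcrb1 highest at a mean of 25.5 TPM (SD 0.70, n = 2) and Snrnp48, a U11 protein, at 6.32 and 4.86 TPM. The 13 genes listed under snRNA transcription, a list that also holds the broader factors Gtf3c1 and Brf1, had a median of 5.44 TPM. Among them Snapc2, a subunit of the complex that binds snRNA promoters, stood at 9.43 and 9.74 TPM. The 14 Integrator genes, whose complex cuts the nascent snRNA 3′ end, had a median of 9.05 TPM, with Ints3 at 27.7 and 24.1 TPM. The 19 genes of export, capping, import and assembly had a median of 9.25 TPM, with Strap, a partner of the SMN complex that loads the Sm ring, at 38.4 and 36.4 TPM. The 9 genes of 3′ trimming and modification had a median of 7.33 TPM, with Ssb, the La protein that binds the ends of RNA polymerase III transcripts, at 56.3 and 53.2 TPM. The 7 decay genes had the highest median log2 ratio of the lists, 0.12, in which Dcp2, a decapping enzyme, went from 8.19 to 11.2 TPM. The 7 genes of U7 and histone mRNA processing had a median of 12.8 TPM, and Lsm10 and Lsm11, the U7 ring proteins, stood at 13.6 and 12.2 TPM and at 4.87 and 3.89 TPM.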

How the data were processed

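Total RNA was measured in 2 adrenal libraries. The deposited expected counts and TPM come from an alignment-derived quantification against GENCODE M21 on mm10, per the notes deposited beside the files. The deposited posterior SD and TPM interval bounds (signal values) come from the same tables, per the file headers, and the level of the interval is not stated. The deposited estimated counts of the read-derived tables were summed by gene. The aligner and the strand setting are not stated in these sources.

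Members and gene lists were chosen with earlier results of these data known. Members are genes of the snRNA biotype with at least 10 expected counts in both libraries; every member is named, and the protein genes named are among the 3 highest of their list or have its largest ratio. Ratios are log2 of TPM + 0.1. Identity, 100-base windows and annotation overlaps were computed with Python 3.11.15, pandas 2.3.3 and Biopython 1.88, from reference transcripts. Intervals of shares are exact (Clopper-Pearson, 95%, scipy 1.17.1). The edgeR 4.0.16 TMM and DESeq2 1.42.0 size factors, tested on simulated data, served as alternative scaling in R 4.3.3; with 1 group, no test was run. The depth of 35684781 and 38701795 counts limits Rnu11 and Gm22042. Promoters were not used here.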

Additional observations from a re-analysis of the deposited data

How the results depend on the processing

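The 29 genes became 33 with a minimum of 5 counts and 27 with a minimum of 50, and 30 and 34 when replicate 1 or replicate 2 was left out. From the read-derived tables there were 0. The mean ratio of U2 to U1 was 1.65 by TPM and 2.00 per annotated kilobase. The ratio of Gm24497 turned from -2.11 to 0.31 with posterior mean counts. The count of genes 2-fold apart was 1 under every pseudocount, scaling and filter tried, although with posterior means it was another gene. The median ratio ranged from 0.35 (1 value per distinct sequence) to 0.64, and TMM gave 0.60. The settings with posterior means, with 1 value per distinct sequence and with no filter for the median were chosen after seeing the data. With 2 libraries, leaving 1 out always stays within 1 SD of their mean. No member lay in a same-strand exon of another gene, so the exon setting removed none. Neither setting says anything about stability. No paired analysis was possible because there is only 1 group. Class shares and ratios could not be had from the read-derived tables, where every value is 0, and the search for upstream promoter elements was not run. Depth limits Rnu11 and Gm22042. The U7 genes, all under 100 bases, have an effective length of 0, so depth is not their limit. For U6 and U5, with effective lengths of 8 and 17 bases, the part of that length in their few counts was not tested.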
